A study of Mus musculus with 3 samples.

Results

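The cells described here are macrophages of the uninjured mouse sciatic nerve that carry transcripts of the Cd209 lectin family, the type placed in the epineurium, the outer sheath of the nerve. They were defined by a sum of raw counts: a cell of the steady-state library belonged to them when it had 4 or more unique molecular identifiers (UMIs, which stand for single captured RNA molecules) over the 5 genes Cd209b, Cd209d, Cd209f, Cd209g and Fcna. The rule was met by 192 of the 728 kept cells of that library (26.4%, 23.2 to 29.7), out of 5580 kept cells in the series. They are called lectin-high cells below. The 482 steady-state cells with a sum of 0 or 1 are called lectin-low cells and were the comparison, and 54 cells with a sum of 2 or 3 were in neither group. The series held 3 single-cell libraries of sciatic nerve macrophages from C57BL/6 mice, an inbred laboratory strain, made with 10x Genomics droplets: uninjured nerve (steady state), crushed nerve taken at day 1 and crushed nerve taken at day 5, with 1 library each. No transgene, agent or other treatment is named in the labels, and the sources used here give neither the age of the mice, nor their number per library, nor the sort of the cells. With 1 library per time point no comparison had replicates, so no test was made and no p-value is given. Intervals are 95% intervals that cover counting error only.

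Peripheral nerves hold macrophages in separate compartments. Those of the endoneurium lie among the axons and Schwann cells, and those of the epineurium lie in the connective tissue around them. Epineurial macrophages resemble the macrophages found along blood vessels and in connective tissue of other organs, which are known for scavenger and mannose-binding receptors such as Lyve1, Folr2 and Mrc1. The Cd209 genes encode C-type lectins, calcium-dependent receptors that bind sugars on microbes and glycoproteins, and Fcna encodes ficolin-A, a secreted lectin that starts the lectin pathway of complement.

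Depth was alike in the groups compared. The lectin-high cells had 443186 UMIs in all and a median of 2317 UMIs and 772.5 genes per cell, against 1070294 UMIs and a median of 2207 UMIs and 683 genes in lectin-low cells. The median share of mitochondrial UMIs was 0.525% in lectin-high cells and 0.394% in lectin-low cells. The labels give 731 cells for the steady-state library, which is also its number of barcodes, and the filter on genes and mitochondrial UMIs left 728. This library shared 2 of its barcodes with the day 1 library and 3 with the day 5 library. Levels are given as CPM, the UMIs of a gene per 1000000 UMIs of the group, summed over its cells.

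By their markers the lectin-high cells were macrophages. All 10 general macrophage markers, among them Csf1r, Adgre1, Cd68 and the C1q genes, were detected in each group, at a summed 50392 CPM in lectin-high cells and 49311 CPM in lectin-low cells. One by one they were not level. Csf1r, Mertk and the C1q genes were above lectin-low cells, with C1qa at 10610 CPM in lectin-high and 6947 CPM in lectin-low cells. Adgre1, Fcgr1, Cd68, Cd14 and Lyz2 were below them, with Adgre1 at 244 CPM in lectin-high and 457 CPM in lectin-low cells. The 6 marker genes of the label were all detected too, with 14656 UMIs in lectin-high cells and 1484 UMIs in lectin-low cells, but 4 of these are rule genes and this count was fixed by the choice of cells. Retnla and Lyve1, the label markers outside the rule, are described with the other genes. Among genes of other cells, the neutrophil granule genes S100a8, S100a9 and Retnlg, the monocyte genes Ly6c2, Chil3, Vcan and F10 and all 6 T and NK cell genes in the table had 0 UMIs in lectin-high cells. Of these, only Ly6c2, Chil3 and the NK cell gene Klrb1c had any in lectin-low cells. The monocyte genes Plac8 and Ccr2 had 16 and 38 UMIs in lectin-high cells. Plac8 was at 36.1 CPM in lectin-high cells and 14.9 CPM in lectin-low cells, and Ccr2 at 85.7 and 277 CPM in that order. The summed level of 7 fibroblast markers was 117 CPM in lectin-high cells and 121 CPM in lectin-low cells, and that of 6 Schwann cell markers was 246 CPM in lectin-high cells and 344 CPM in lectin-low cells. The 10 cycling cell markers in the table summed to 424 CPM in lectin-high cells and 909 CPM in lectin-low cells. The 9 dendritic cell markers summed to 302 CPM in lectin-high cells, with Ccr7, Flt3, Zbtb46, Xcr1, Itgae and Clec9a at 0, and to 158 CPM in lectin-low cells. Of the 134 UMIs in lectin-high cells, 130 were of Cd209a, itself a Cd209 family gene. The 6 neutrophil markers summed to 230 CPM in lectin-high cells and 94.4 CPM in lectin-low cells. Mmp9 gave 97 of the 102 UMIs in lectin-high cells and 87 of the 101 UMIs in lectin-low cells. The rest were of Csf3r, at 9.03 CPM in lectin-high cells and 12.1 CPM in lectin-low cells, and of Cxcr2, with 1 UMI in each group.

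The rule genes chose the cells, so their values only describe the choice. Cd209f was detected in 88.0% of the lectin-high cells and gave 52.1% of their rule UMIs. Cd209g was detected in 79.7%, Fcna in 76.6%, Cd209d in 64.6% and Cd209b in 31.3% of them. The rule sum of a lectin-high cell ranged from 4 to 103 with a median of 19.5. Of the 192 cells, 32 had all 5 genes, 62 had 4, 63 had 3, 21 had 2 and 14 had 1. Just inside the limit, 17 cells had a sum of 4 and 13 a sum of 5, with Retnla at 5137 and 20547 CPM and Cd74 at 15515 and 23268 CPM. Just outside it, 23 cells had a sum of 3 and 31 a sum of 2, with Retnla at 3172 and 5705 CPM and Cd74 at 26011 and 32325 CPM. Retnla at a sum of 2 was thus above that at a sum of 4.

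Cd209f and Cd209g lie near each other on mouse chromosome 8 in the build GRCm38, at chr8:4102787-4105835 on the minus strand and chr8:4134098-4137707 on the plus strand. Cd209d is at chr8:3871824-3878555 and Cd209b at chr8:3917655-3926844, both on the minus strand, while Fcna is at chr2:25624666-25628030. The start regions of Cd209f and Cd209g are printed because they carry most of the rule counts and are near copies of each other. The windows are RefSeq sequences of GRCm38.p6, chr8:4105715-4106014 (minus strand) and chr8:4134486-4134785 (plus strand), from 250 bases before to 50 bases after the start that RefSeq gives each gene. The gene bounds above are from GENCODE, whose starts differ, so that the Cd209g window lies inside the GENCODE gene. Capitals mark the longest run of bases that the windows share.
Cd209f: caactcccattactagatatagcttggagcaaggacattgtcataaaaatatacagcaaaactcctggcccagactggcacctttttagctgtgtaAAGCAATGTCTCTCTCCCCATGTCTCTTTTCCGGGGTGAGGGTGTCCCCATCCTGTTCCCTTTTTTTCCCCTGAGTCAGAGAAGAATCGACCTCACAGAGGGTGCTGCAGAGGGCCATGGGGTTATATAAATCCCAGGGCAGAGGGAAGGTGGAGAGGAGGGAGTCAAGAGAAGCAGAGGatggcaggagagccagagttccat
Cd209g: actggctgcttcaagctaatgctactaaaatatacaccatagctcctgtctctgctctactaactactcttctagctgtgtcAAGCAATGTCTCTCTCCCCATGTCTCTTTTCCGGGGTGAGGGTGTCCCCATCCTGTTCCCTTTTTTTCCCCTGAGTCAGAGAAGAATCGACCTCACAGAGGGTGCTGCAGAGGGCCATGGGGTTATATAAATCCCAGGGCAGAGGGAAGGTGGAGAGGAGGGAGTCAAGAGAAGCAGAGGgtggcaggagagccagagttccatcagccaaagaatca

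The shared run was 180 bases long, at positions 97 to 276 of the Cd209f window and 83 to 262 of the Cd209g window, counted from 1 at the 5′ end. Over the 286 bases that could be laid side by side in this register, 238 were identical (83.2%). The transcripts were alike too: 29.8% of the distinct 50-base words of Cd209f transcripts also occurred in Cd209g transcripts, and 16.6% of those of Cd209g in Cd209f. Reads from such stretches cannot be assigned to either gene with certainty, and how they were counted was not checked. A split between the genes would not change the sum over the rule genes, while reads left out would lower it.

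Against lectin-low cells, the lectin-high cells had far more transcripts of the secreted factor Retnla, the chemokine Ccl8, the surface protein gene Ly6e and complement genes, and fewer of the chemokine receptor Cx3cr1, the class II antigen presentation genes and inflammatory genes. In the counts that follow, a gene is higher or lower when its ratio reached 2-fold. Of 2284 genes with a mean of 50 CPM or more over both groups, 269 were higher in lectin-high cells (11.8%) and 172 were lower (7.53%). The median log2 ratio of all 2284 genes was 0.15. Scaled by the median of ratios, which lowers every log2 ratio by 0.15, 201 genes were higher and 228 lower. The list counts use genes with a mean of 20 CPM or more, where 13.4% of 4347 genes were higher, 10.8% lower, and the median log2 ratio was 0.11.

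Retnla encodes resistin-like alpha, a secreted protein known as a product of macrophages exposed to interleukin-4. It had 9605 UMIs in lectin-high cells and 1209 UMIs in lectin-low cells, or 21673 CPM (21241 to 22110) against 1130 CPM (1067 to 1195), a ratio of 19.2 (18.1 to 20.4). Per lectin-high cell the median was 37 UMIs, with quartiles of 8 and 72.25, the highest at 281, and 15 of the 192 cells at 0. Per lectin-low cell the median was 0 UMIs and the highest 153. Of the lectin-low cells, 24 of 482 (4.98%) had 10 or more Retnla UMIs and held 73.9% of that group's Retnla UMIs. The groups thus overlapped at their edges. After every cell was thinned to 1000 UMIs, Retnla was seen in 88.2% of lectin-high cells and in 25.7% of lectin-low cells. It was seen in 25.8% of the lectin-low cells that had 2 or more UMIs of Cx3cr1 (31 cells after thinning, median 2277 UMIs before it against 2317 in lectin-high cells). Free RNA was not measured, and it cannot be told apart from a low level of Retnla in lectin-low cells. Without thinning the shares were 92.2% of lectin-high cells and 44.0% of lectin-low cells.

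The start region of Retnla is shown because Retnla had the most UMIs among the leading genes outside the rule. It was searched on both strands for TTCNNNNGAA, the pattern bound by STAT6, the factor that acts downstream of interleukin-4. The window is chr16:48842359-48842658 (GRCm38.p6, RefSeq, plus strand), and capitals mark the match.
Retnla: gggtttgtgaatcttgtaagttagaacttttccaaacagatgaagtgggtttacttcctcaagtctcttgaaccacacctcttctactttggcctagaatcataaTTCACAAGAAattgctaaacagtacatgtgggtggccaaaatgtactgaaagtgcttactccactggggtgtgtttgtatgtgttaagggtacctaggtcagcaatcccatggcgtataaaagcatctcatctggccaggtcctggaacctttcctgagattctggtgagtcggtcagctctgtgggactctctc
The pattern occurred in 6.95% of all 32851 promoter windows of the same length and in 0 of those of the 5 rule genes. A match only says that the letters are there.

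Gstp1 and Cela1 led the ratios upward. Gstp1, a glutathione transferase, had 45 UMIs in lectin-high cells and 1 UMI in lectin-low cells, a ratio of 109 (18.5 to 4387). Cela1, an elastase-type protease gene, had 53 UMIs in lectin-high cells and 2 UMIs in lectin-low cells, a ratio of 64.0 (16.9 to 542). Both counts in lectin-low cells are too small to fix the ratio. With the top cell of each group left out, the ratio of Cela1 was 106. Gstp1 then had 0 UMIs in lectin-low cells, and its ratio of 33.8 sets 3 counts in place of 0. Gstp1 shares 33.7% of its 50-base words with Gstp2, so its count is uncertain. Rasgrp2, an exchange factor for Rap proteins, was at 108 CPM in lectin-high cells and 5.61 CPM in lectin-low cells, 19.3-fold higher (8.26 to 55.2). Ly6e was at 2105 CPM in lectin-high cells and 189 CPM in lectin-low cells (11.2-fold, 9.57 to 13.1), and after thinning it was seen in 70.8% of lectin-high cells, 11.3% of lectin-low cells and 6.45% of the Cx3cr1 cells. Ms4a8a, a gene for a membrane-spanning protein, was 13.4-fold higher (6.98 to 28.2), and the histone gene Hist1h2bc 9.93-fold higher (6.47 to 15.7), with 30.1% of its 50-base words shared with other genes.

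For 2 of the 12 leading genes upward the value rested on 1 cell. Lpar1, a receptor for lysophosphatidic acid, had 48 UMIs in lectin-high cells, 72.9% of them in 1 cell, and its ratio of 12.9 was 6.28 without the top cell of each group. Dnajc12, a co-chaperone gene, had 63 UMIs in lectin-high cells, 82.5% of them in 1 cell, and its ratio of 11.7 was 2.66 without the top cells. With cells that carry markers of other cell types or of cycling left out, the log2 ratio of Dnajc12 was -1.23, opposite in sign, and that of Lpar1 was 0.94, under 2-fold. The markers of this filter include Cd209a (130 UMIs in lectin-high cells) and Mmp9 (97 UMIs), both at higher CPM in lectin-high than in lectin-low cells. It can thus also leave out lectin-high macrophages, here and wherever it is used below. The number of cells it left is not given. Such single-cell peaks were spread over the library: 41.7% of lectin-high cells and 41.9% of lectin-low cells had 15 or more UMIs of some gene that averaged under 0.5 UMIs per kept cell. Of the 269 higher genes, 220 still reached 2-fold without the top cell of each group, whatever level was left. Their cause was not tested.

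**Figure D1:**
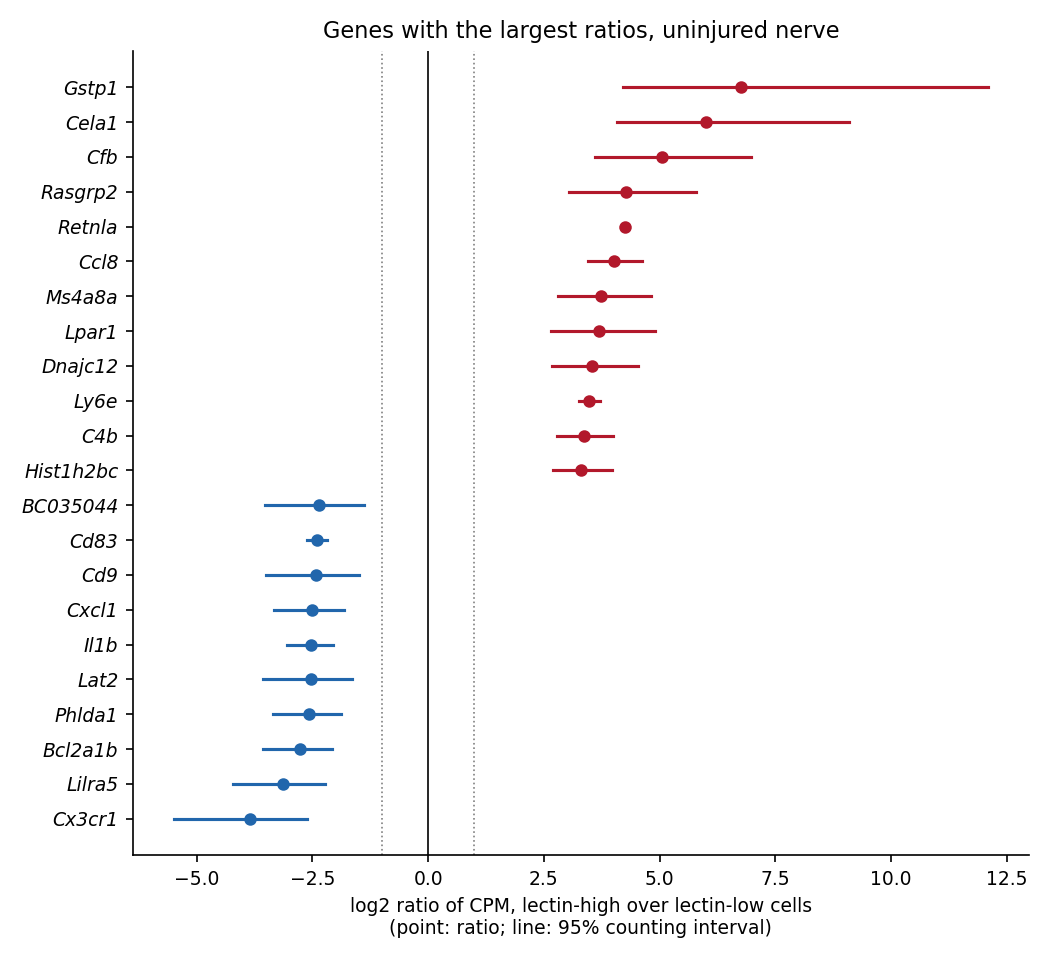
Log2 ratio of CPM in lectin-high over lectin-low cells of uninjured nerve for genes with the largest ratios, 12 higher and 10 lower, rule genes left out. Points are ratios, lines are 95% counting intervals and dotted lines mark 2-fold. Retnla has the narrowest interval, and Gstp1, with 1 UMI in lectin-low cells, the widest.

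Downward, Cx3cr1, the receptor for fractalkine, had 5 UMIs in lectin-high cells (11.3 CPM) and 175 UMIs in lectin-low cells (164 CPM), 14.5-fold lower (6.09 to 45.2). Lilra5, an activating immunoglobulin-like receptor, was at 22.6 CPM in lectin-high cells and 199 CPM in lectin-low cells, 8.82-fold lower (4.70 to 18.7). Cd9, a tetraspanin gene, was at 22.6 CPM in lectin-high cells and 121 CPM in lectin-low cells, 5.34-fold lower (2.81 to 11.4). Its log2 ratio of -2.42 was -1.32 with a rule sum of 3 or more and -4.66 with cells that carry markers of other types or of cycling left out. Il1b, Cxcl1, Cd83, Phlda1, Lat2, BC035044 and Bcl2a1b were 5.11-fold to 6.84-fold lower. Bcl2a1b, a survival gene of the Bcl2 family, shares 79.2% of its 50-base words with its neighbours in that family, so its count is uncertain.

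Genes known from perivascular and connective tissue macrophages were higher together. Of the 24 measured, 16 were higher, 0 were lower (median log2 ratio 1.61), and the list holds the label markers Retnla and Lyve1. Folr2, the folate receptor beta, was at 3962 CPM in lectin-high cells and 741 CPM in lectin-low cells (5.35-fold, 4.91 to 5.82), and was seen after thinning in 91.3% of lectin-high cells, 37.5% of lectin-low cells and 16.1% of the Cx3cr1 cells. Lyve1, a hyaluronan receptor, was at 569 CPM in lectin-high cells (501 to 643) and 184 CPM in lectin-low cells (159 to 212), 3.09-fold higher (2.55 to 3.74). After thinning it was seen in 29.8% of lectin-high cells and 9.72% of lectin-low cells. Fxyd2, a regulator of the sodium pump, was 7.88-fold higher (6.53 to 9.57). Clec10a, a galactose-binding lectin, was 4.48-fold higher (3.80 to 5.30). Timd4, a receptor for phosphatidylserine on dying cells, was 3.37-fold higher (2.51 to 4.54).

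Several genes of the same list did not separate the groups. The mannose receptor Mrc1 was at 406 CPM in lectin-high cells and 352 CPM in lectin-low cells. The haemoglobin receptor Cd163 was at 415 CPM in lectin-high cells and 309 CPM in lectin-low cells. Mgl2, the close relative of Clec10a, was at 1715 CPM in lectin-high cells and 1981 CPM in lectin-low cells, and the selenoprotein P gene Sepp1 at 5831 CPM in lectin-high cells and 5879 CPM in lectin-low cells. Mgl2 shares 12.2% of its 50-base words with Clec10a.

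Among secreted signals the direction was split by gene. Ccl8, a chemokine gene, was at 438 CPM in lectin-high cells (378 to 504) and 27.1 CPM in lectin-low cells (18.1 to 38.9), 16.2-fold higher (10.9 to 24.8). Ccl24, an eotaxin that attracts eosinophils, was 4.81-fold higher (4.26 to 5.45), and Ccl6 was at 5567 CPM in lectin-high cells and 1691 CPM in lectin-low cells. Il10, an anti-inflammatory cytokine, had 20 UMIs in lectin-high cells and 10 UMIs in lectin-low cells. In the other direction, Ccl12 was 4.35-fold lower (3.83 to 4.96) and Il1b 5.75-fold lower (4.14 to 8.22). Il1b had 34.2% of its 38 UMIs in 1 lectin-high cell, and without the top cells it was 7.98-fold lower. The neutrophil attractant Cxcl2 was at 1751 CPM in lectin-high cells and 7709 CPM in lectin-low cells, Tnf at 31.6 CPM in lectin-high cells and 124 CPM in lectin-low cells, and Cxcl10, an interferon-induced chemokine, at 6.77 CPM (3 UMIs) and 76.6 CPM in that order. Of the 22 inflammatory cytokines and chemokines measured, 5 were higher, 12 lower (median -1.30, and -0.75 with a rule sum of 3 or more).

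Growth and matrix factors were higher in part. The list holds Retnla, and 6 of its 12 measured genes were higher, 1 lower (median 0.96). Igf1, insulin-like growth factor, was at 278 CPM in lectin-high cells and 91.6 CPM in lectin-low cells (3.03-fold, 2.31 to 3.99). Igfbp4, which binds that factor, was at 765 CPM in lectin-high cells and 238 CPM in lectin-low cells (3.21-fold, 2.72 to 3.79). The lower gene was Bmp2, a bone morphogenetic protein, at 18.1 CPM in lectin-high cells and 94.4 CPM in lectin-low cells (5.23-fold lower, 2.55 to 12.4).

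Complement genes also went both ways. The alternative pathway genes Cfb and Cfp and the classical pathway genes C2 and C4b were higher and the receptors C3ar1 and C5ar1 lower, of 13 measured (median 0.61). Cfb was at 124 CPM in lectin-high cells and 3.74 CPM in lectin-low cells (33.2-fold, 12.3 to 126), though 73.0% of its 50-base words also occur in an overlapping gene model. Properdin, Cfp, was at 1390 CPM in lectin-high cells and 313 CPM in lectin-low cells (4.44-fold, 3.88 to 5.09). C4b was at 291 CPM in lectin-high cells and 28.0 CPM in lectin-low cells, and it shares 34.6% of its words with C4a. The C1q genes were within 2-fold, with C1qb 1.59-fold higher (1.53 to 1.65). C3ar1, the receptor for C3a, was 4.08-fold lower (3.05 to 5.58). Of 5 coagulation genes, F13a1, Anxa2, S100a10 and Thbd were higher, though Anxa2 (0.97 after thinning) and S100a10 (0.99 under median of ratios) then missed a log2 ratio of 1. The transglutaminase subunit F13a1 was at 1288 CPM in lectin-high cells and 533 CPM in lectin-low cells. The urokinase receptor Plaur was lower, with 2 UMIs in lectin-high cells and 42 UMIs in lectin-low cells.

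Interferon response genes were higher as a group: 15 of 21 passed 2-fold upward, 0 downward (median 1.55). The interferon-induced chemokine Cxcl10, given above as lower in lectin-high cells, is not among these 21. Ifit3, an antiviral RNA-binding protein, was at 201 CPM in lectin-high cells and 25.2 CPM in lectin-low cells (7.96-fold, 5.12 to 12.7), and Ifi27l2a at 2534 CPM in lectin-high cells and 450 CPM in lectin-low cells (5.63-fold, 5.05 to 6.27). Rtp4 was 3.10-fold higher (2.28 to 4.22) and Oasl2, of the oligoadenylate synthase family, 3.27-fold (2.01 to 5.38). After thinning Ifit3 was seen in 10.6% of lectin-high cells and 0.926% of lectin-low cells, while Ifi27l2a was seen in 72.7% of lectin-high cells and 23.8% of lectin-low cells, and in the Cx3cr1 cells Ifit3 was seen in 0 of 31 and Ifi27l2a in 32.3%. At the level of Ifit3 most cells thinned to 1000 UMIs would hold none, so its shares do not say how many cells expressed it. Ifit3 shares 51.2% of its 50-base words with Ifit3b, so its count is uncertain. Interferon receptor genes did not share the direction: Ifnar1 was at 18.1 CPM in lectin-high cells and 38.3 CPM in lectin-low cells, Ifnar2 at 185 CPM in lectin-high cells and 163 CPM in lectin-low cells, and Ifngr1 2.32-fold lower (1.87 to 2.91).

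The start region of Ifit3 shows the element that interferon-activated factors bind. It was searched on both strands for GAAANNGAAA, the core of the interferon-stimulated response element, and capitals mark the matches in chr19:34583279-34583578 (GRCm38.p6, RefSeq, plus strand).
Ifit3: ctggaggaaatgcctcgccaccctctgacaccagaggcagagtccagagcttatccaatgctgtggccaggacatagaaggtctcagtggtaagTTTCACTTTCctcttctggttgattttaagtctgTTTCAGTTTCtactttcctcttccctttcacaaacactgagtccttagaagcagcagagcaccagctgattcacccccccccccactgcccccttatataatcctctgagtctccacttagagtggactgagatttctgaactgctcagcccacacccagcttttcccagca
Here 2 matches were found, each in the reverse orientation. The pattern occurred in 3.44% of all 32851 windows and in 14 of the 22 interferon response genes that had one (63.6%). Of the 9 such genes that were measured and higher, 5 held it, among them Isg15, Bst2 and Gbp2. None of the 5 rule genes held it, nor did Retnla.

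Class II antigen presentation was lower throughout its core. Of 10 genes, 8 were lower, 0 higher (median -1.48). Cd74, the invariant chain, was at 12169 CPM in lectin-high cells (11846 to 12498) and 36224 CPM in lectin-low cells (35864 to 36586), 2.98-fold lower (2.89 to 3.06). The class II chains H2-Aa, H2-Ab1 and H2-Eb1 had log2 ratios of -1.48, -1.48 and -1.49. H2-DMb1, which helps load peptides and shares 22.7% of its 50-base words with H2-DMb2, was 3.60-fold lower (3.07 to 4.26), and the costimulatory Cd86 and Cd83 were lower too, Cd83 by 5.27-fold (4.57 to 6.10). Class I presentation did not follow: of 15 genes 0 passed 2-fold in either direction (median 0.51), with H2-D1 at 4089 CPM in lectin-high cells and 2889 CPM in lectin-low cells.

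Genes switched on quickly by stimulation were lower in lectin-high cells. Of 19 immediate early genes, 12 were lower, 0 higher (median -1.25). Of 13 NF-kappaB genes 7 were lower and 0 higher (median -1.04, and -0.89 over means of cells). Fos was at 2773 CPM in lectin-high cells and 8526 CPM in lectin-low cells (3.07-fold lower, 2.90 to 3.27). Egr2 was at 126 CPM in lectin-high cells and 394 CPM in lectin-low cells, Klf6 3.08-fold lower (2.81 to 3.38), and Nfkbia, the inhibitor that NF-kappaB itself induces, 2.98-fold lower (2.65 to 3.36). Fosb, one of 7 within 2-fold, was at 724 CPM in lectin-high cells and 827 CPM in lectin-low cells. Of 11 heat shock genes 2 were higher and 2 lower (median -0.21), the lower ones being Hspa5 (2.69-fold) and Dnaja1 (2.18-fold).

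Receptors for bacterial products were lower or within 2-fold. Of 7 Toll-like receptor genes and adaptors, 3 were lower (median -0.999, and -0.36 over means of cells): Cd14, the lipopolysaccharide co-receptor, at 1024 CPM in lectin-high cells and 3559 CPM in lectin-low cells, Tlr2, whose log2 ratio of -1.02 ranged from -1.23 to -0.58 over the settings, and Tlr4 with 5 UMIs in lectin-high cells and 35 in lectin-low cells. Of 21 cytokine and chemokine receptor genes 8 were lower and 0 higher (median -0.44), with Ccr2 at 85.7 CPM in lectin-high cells and 277 CPM in lectin-low cells. The receptor for the macrophage growth factor, Csf1r, was at 857 CPM in lectin-high cells and 760 CPM in lectin-low cells.

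Markers given to endoneurial macrophages were mostly lower. Of 6 measured, 4 were lower (Cx3cr1, Ccl12, Gpr34 and Trem2, the last at a log2 ratio of -1.06 that was as near 0 as -0.82 under other settings), P2ry12 was within 2-fold, and Mgst1, a microsomal glutathione transferase, was higher at 178 CPM in lectin-high cells and 39.2 CPM in lectin-low cells (4.54-fold, 3.09 to 6.77). Cadm1, Il1rl1 and Tmem119 of the same list had 0 UMIs in lectin-high cells. Of 9 microglia-associated genes 4 were lower and 0 higher (median -0.73), with St3gal6 4.16-fold lower (2.65 to 6.86), while Fcrls was at 639 CPM in lectin-high cells and 637 CPM in lectin-low cells. Among 23 transcription factors 2 were higher and 6 lower (median -0.16). Irf8, which acts in monocyte and microglia development, was 2.66-fold lower (1.86 to 3.92), and Maf and Spi1 were within 2-fold.

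C-type lectins outside the rule were not shared as a class: 4 of 14 were higher, 4 lower (median -0.10). Clec10a, Cd209a, Cd302 and Colec12 were the higher ones, with Cd209a, a further Cd209 gene that the rule leaves out, at 293 CPM in lectin-high cells and 123 CPM in lectin-low cells (2.38-fold, 1.85 to 3.05). Clec12a, an inhibitory receptor, was 4.42-fold lower (3.12 to 6.45). Of 15 scavenger and endocytic receptors 5 were higher and 1 lower (median 0.43), among them Fcgrt, the neonatal Fc receptor, at 2089 CPM in lectin-high cells and 834 CPM in lectin-low cells. Of 14 genes of apoptotic cell uptake, Timd4 and Lrp1 were higher (Lrp1 at a log2 ratio of 1.31, but 0.74 with cells carrying markers of other types or of cycling left out) and Trem2, Axl and Itgb5 lower (median 0.28). Itgb5 had 2 UMIs in lectin-high cells and 107 in lectin-low cells, 22.2-fold lower (5.98 to 185). Of 9 Fc receptor genes 2 were higher and 1, Fcgr4, was lower (median -0.08).

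Among metabolic genes, the respiratory chain was higher in part. Of 29 oxidative phosphorylation genes, 9 were higher, 0 lower (median 0.85), with Cox5a at 413 CPM in lectin-high cells and 129 CPM in lectin-low cells. Uqcrq was at 420 CPM in lectin-high cells and 134 CPM in lectin-low cells. Of 13 glycolysis genes 1 was higher and 0 lower (median 0.19). In eicosanoid synthesis, Ltc4s, leukotriene C4 synthase, was at 1737 CPM in lectin-high cells and 281 CPM in lectin-low cells (6.18-fold, 5.40 to 7.08), and 4 of the 11 genes were lower, including the cyclooxygenase Ptgs1 (3.85-fold) and the prostaglandin D synthase Hpgds (3.31-fold). Of 19 detoxification genes 6 were higher and 1 lower (median 0.56). Of 13 iron and heme genes 2 were higher, the biliverdin reductases Blvra and Blvrb, and 1 was lower (median 0.42). Both sat at the line, with log2 ratios of 1.05 for Blvra and 1.00 for Blvrb, and under other settings they were as low as 0.66 and 0.86. The ferritin gene Ftl1 was at 22036 CPM in lectin-high cells and 13479 CPM in lectin-low cells, with 50.9% of its 50-base words shared with other genes.

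The remaining lists differed little or through a few genes. Of 27 lysosomal genes 2 were higher and 1 lower (median 0.07); cathepsin D, Ctsd, was 3.12-fold higher (2.67 to 3.66), with 32.4% of its words shared with another gene model. Of 12 lipid genes 2 were higher and 2 lower (median 0.13). The phospholipid transfer protein Pltp was 2.83-fold higher (2.48 to 3.23), while the apolipoprotein gene Apoe was at 34933 CPM in lectin-high cells and 44314 CPM in lectin-low cells. Of 13 adhesion genes 2 were higher and 3 lower (median -0.21), and of 5 Ms4a genes 1 was higher (median 0.46). Of 8 monocyte genes 4 were higher (Ifitm6, S100a4, Plac8 and S100a6) and Ccr2 was lower (median 0.57), while the monocyte markers Ly6c2 and Chil3 were at 0 in lectin-high cells. Vcan was at 0 in both groups. Of 7 cell cycle genes 4 were lower and 0 higher (median -1.33, and -0.78 after thinning), beside the lower sum of cycling markers given above.

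**Figure D2:**
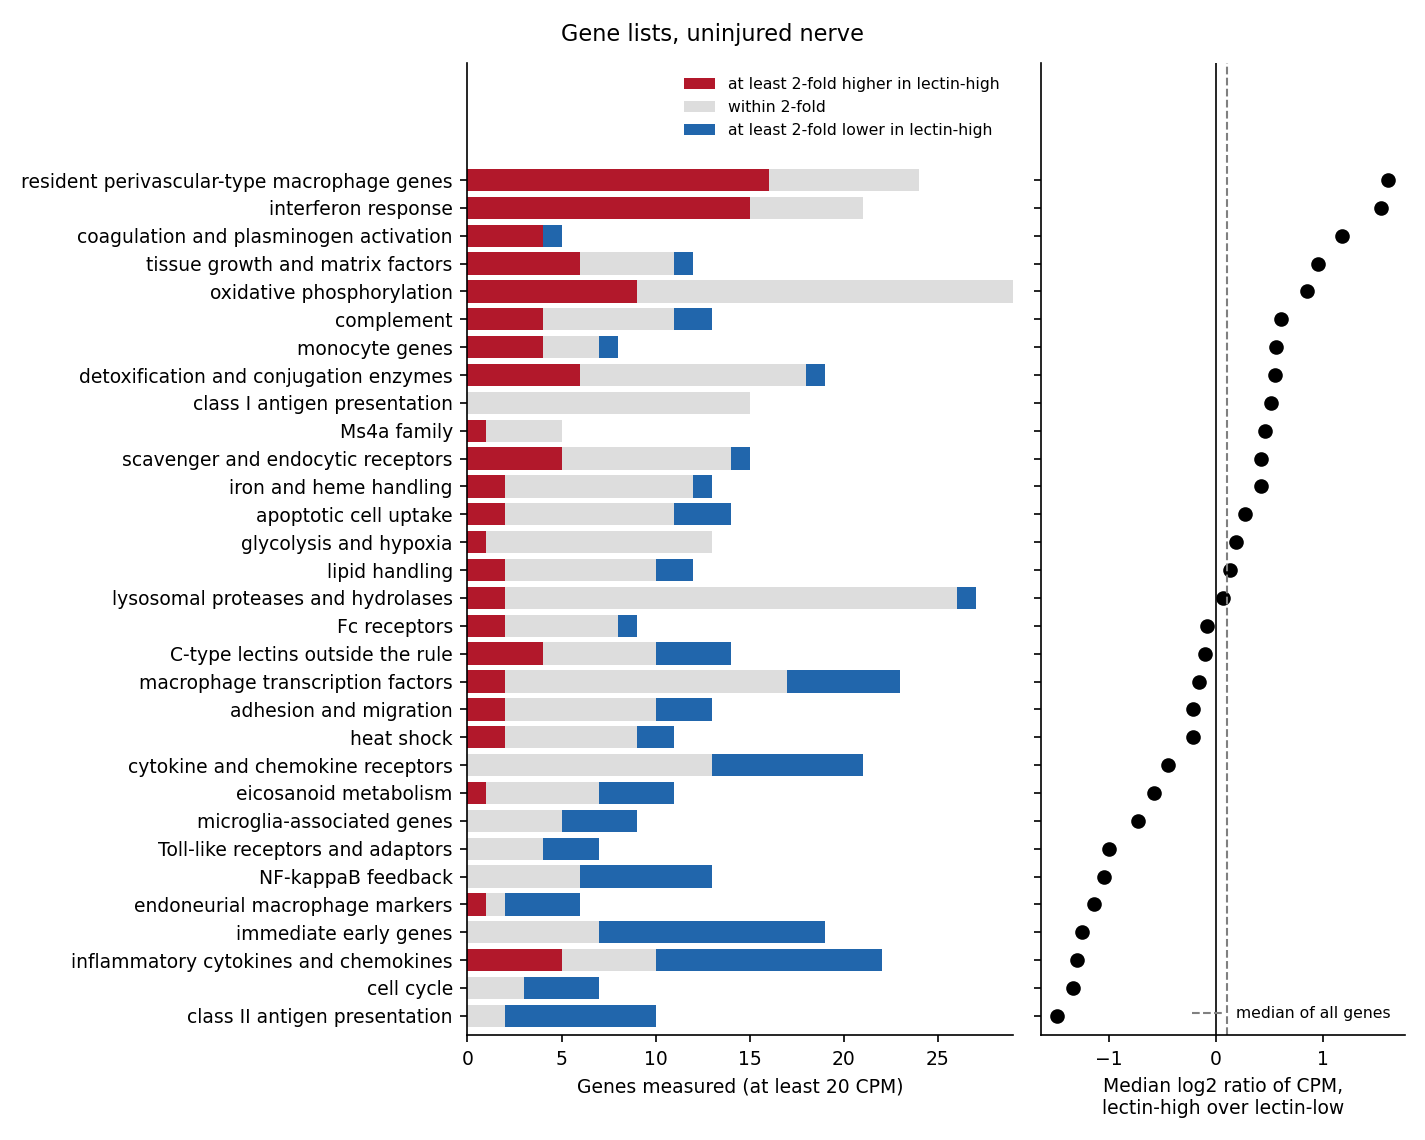
Left, genes of each of the 31 lists that reached 2-fold higher in lectin-high cells, stayed within 2-fold, or reached 2-fold lower, among genes with a mean of 20 CPM or more. Right, the median log2 ratio of each list, with the median of all genes dashed. Perivascular-type and interferon response genes have the highest medians (1.61 and 1.55) and class II genes the lowest (-1.48).

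Levels were also set out along the rule sum, as a description, since the sum chose the cells. They did not follow it in strict order. For sums of 0, 1, 2 to 3, 4 to 7, 8 to 15 and 16 or more, there were 398, 84, 54, 46, 29 and 117 cells. Retnla was at 1159, 998, 4761, 13829, 28192 and 22916 CPM in that order. Cells with a sum of 2 or 3 lay between the groups for Retnla and also for Folr2 (1300 CPM), whereas their Cd74 (29973 CPM) was nearer that of lectin-low cells. For other genes they lay outside both groups. Lyve1 was at 90.9 CPM in them, under both groups. Before thinning, Anxa2 (762 CPM) and S100a10 (1426 CPM), a pair that binds plasminogen, were above both. After thinning to 1000 UMIs they were at 467 and 1022 per 1000000. Thinned S100a10 was at 970 at sums of 4 to 7 and 1158 at sums of 8 to 15, so it did not stay above lectin-high cells at every sum. Ccl17, a chemokine gene of dendritic cells and macrophages, was at 1867 CPM in the cells with a sum of 2 or 3 (267 UMIs), against 6.77 CPM in lectin-high cells and 1.87 CPM in lectin-low cells. How many of the 54 cells held these UMIs is not given. Cd74 was at 36073, 36890, 29973, 20470, 8313 and 10389 CPM in the same order, and Fos at 8455, 8840, 5495, 3378, 2955 and 2573 CPM. Fos was lowest at a sum of 16 or more, and Cd74 at 8 to 15, where cells were also shallowest. Median depth in the same order was 2206.5, 2228.5, 2428.5, 2018.5, 1206 and 2617 UMIs, so the sums did not follow depth in order. After thinning to 1000 UMIs, Retnla was at 1057, 938, 5911, 16606, 29053 and 23303 per 1000000.

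**Figure D3:**
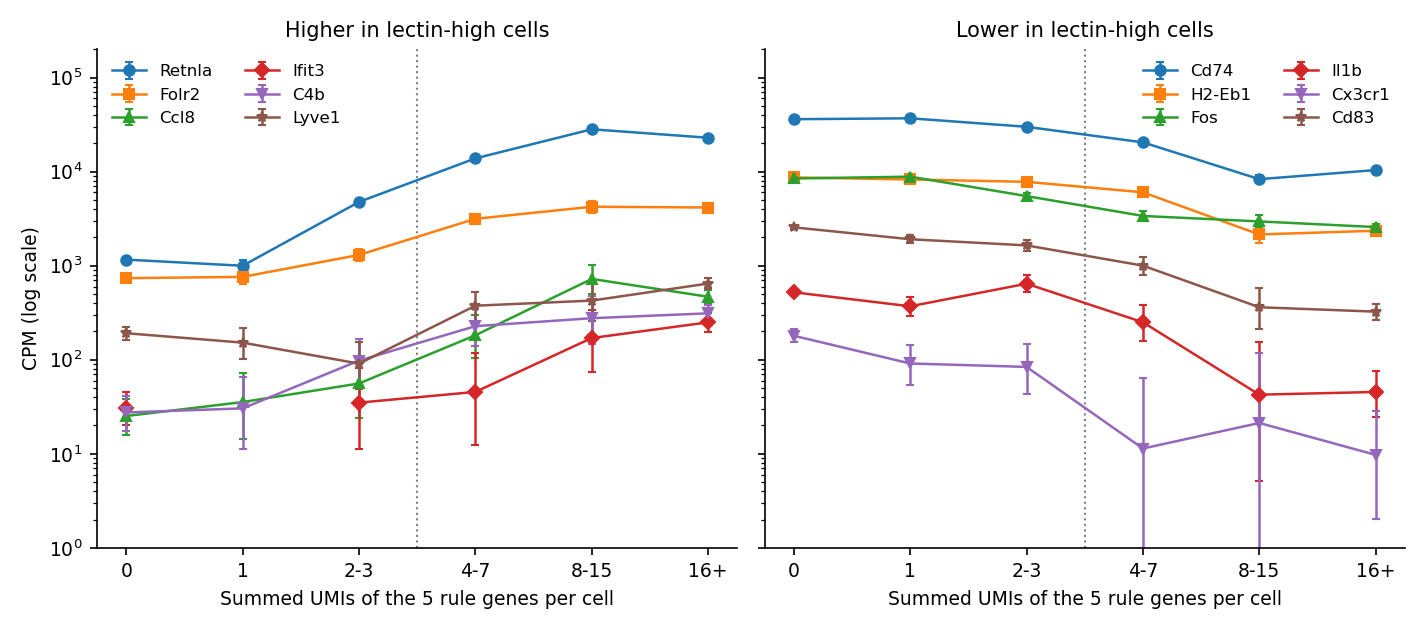
Level (CPM, log scale) against the summed UMIs of the 5 rule genes per cell, for 6 genes higher (left) and 6 genes lower (right) in lectin-high cells. Bars are 95% counting intervals, a missing point is a count of 0, and the dotted line separates the lectin-high cells on its right. Retnla and Folr2 are higher already at a sum of 2 to 3, and Cd74 is lowest at 8 to 15.

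The lectin-high cells were not uniform. After thinning to 1000 UMIs, which left out 31 lectin-high and 50 lectin-low cells of lower depth, class II genes took a median of 17 UMIs per lectin-high cell, with a 10th percentile of 3, a 90th percentile of 68 and a maximum of 156. In lectin-low cells the median was 82 and the 10th percentile 33. Of the 161 lectin-high cells, 56 (34.8%, 27.5 to 42.7) reached that 10th percentile of lectin-low cells. Retnla had a median of 19 UMIs per lectin-high cell and 19 of the 161 cells had none. Retnla exceeded the 90th percentile of lectin-low cells, 1 UMI, in 138 cells (85.7%, 79.3 to 90.7), and 44 cells met both conditions. Interferon response genes had a median of 7 UMIs per cell and a maximum of 37, against a median of 2 in lectin-low cells. Immediate early genes had a median of 22 UMIs in lectin-high cells and 54 in lectin-low cells.

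Among the 161 thinned cells, measures were only weakly related, and all share the same 1000 UMIs per cell. Spearman's rho was -0.30 between the lectin sum and class II genes, -0.35 between class II and respiratory chain genes, -0.31 between class II genes and Folr2, and 0.07 between class II genes and Retnla. These are descriptions of cells of 1 library, and no p-value is given. Of the 10 genes whose UMIs varied most between lectin-high cells for their mean, with rule and predicted genes left out, Retnla and Cd74 had a variance of 17.4 and 16.2 times the mean, and Ccl4 9.41 times. The other 7 were Psmg4, Mapkapk2, Tmco1, Tnfrsf1a, Mrpl33, Atp5o and Rpn2, each with a top cell of 16 to 27 UMIs and a mean under 0.5.

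**Figure D4:**
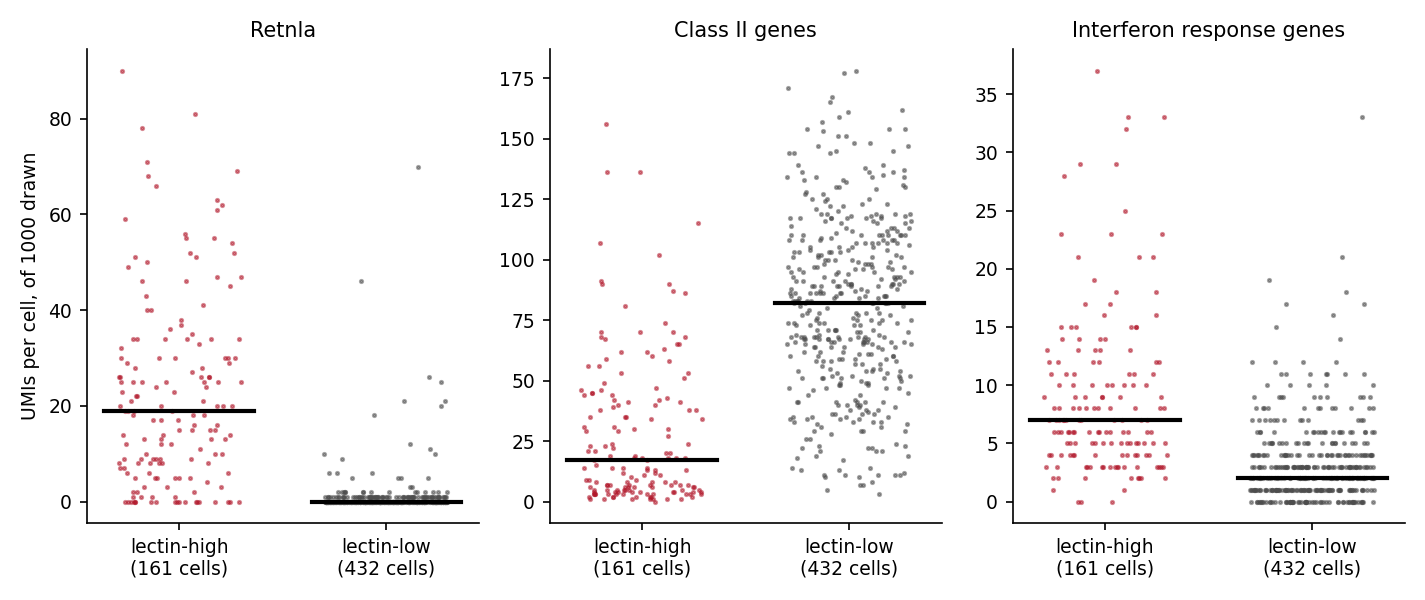
UMIs per cell after thinning each cell to 1000 UMIs, for Retnla, the summed class II genes and the summed interferon response genes, in lectin-high (left) and lectin-low (right) cells of uninjured nerve. Each point is a cell and the black bar is the median. Class II values of lectin-high cells run from 0 to 156 around a median of 17, against a median of 82 in lectin-low cells.

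The same rule was applied to the injured libraries, to set the cells that met it there beside those of uninjured nerve. At steady state, day 1 and day 5 it was met by 26.4%, 1.11% (31 of 2793 cells, 0.755 to 1.57) and 3.06% (63 of 2059 cells, 2.36 to 3.90). A lower share can come from fewer such cells, from more cells of other kinds or from fewer lectin transcripts per cell, which cannot be told apart here. The median UMIs of the cells that met it were 2317, 1611 and 1889. Retnla in these cells was at 21673, 7375 and 17243 CPM at steady state, day 1 and day 5. Folr2 was at 3962, 998 and 2361 CPM, and Lyve1 at 569, 452 and 425 CPM with overlapping intervals (501 to 643, 303 to 649 and 323 to 550).

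Ccl8 ran the other way, at 438, 1138 and 2397 CPM in the cells that met the rule. It was also higher in the cells with a sum of 0 or 1, at 27.1, 200 and 773 CPM. Timd4 was at 255, 515 and 36.7 CPM, from 113, 33 and 5 UMIs. Fos was at 2773, 1310 and 814 CPM, and Ifit3 at 201, 46.8 and 73.3 CPM, where day 1 rests on 3 UMIs. Cd74 in the cells that met the rule was at 12169, 9636 and 6451 CPM, and in the cells with a sum of 0 or 1 at 36224, 3780 and 14088 CPM, so the order of the groups at day 1 was opposite to that at steady state. Each time point is 1 library, and time cannot be told apart from library.

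**Figure D5:**
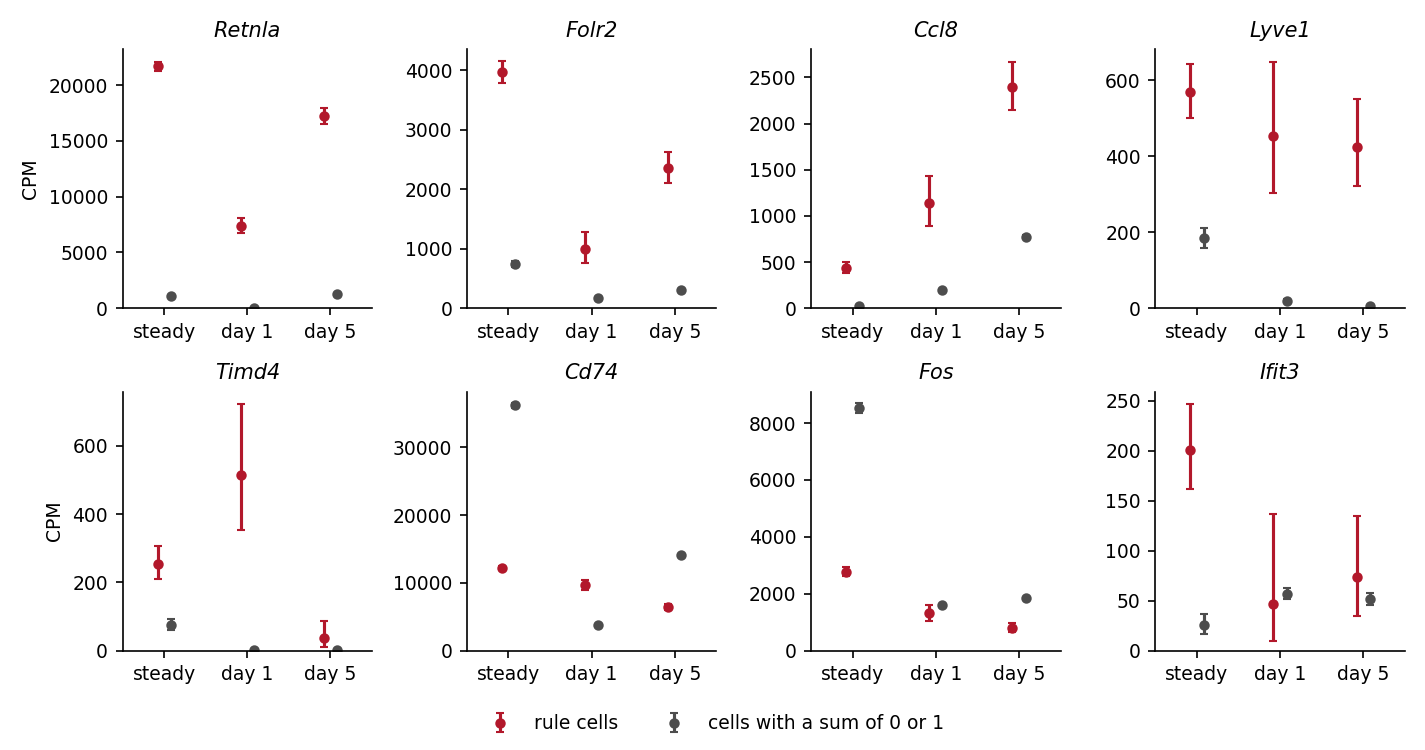
CPM of 8 genes at steady state, day 1 and day 5 after crush, in cells that met the lectin rule (192, 31 and 63 cells) and in cells with a rule sum of 0 or 1. Points are levels with 95% counting intervals. Ccl8 is highest at day 5, and Cd74 is lower than in the other cells at steady state and day 5 but higher at day 1.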

How the data were processed

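Single-cell libraries of sciatic nerve macrophages were analysed from the deposited tables of UMI counts per gene and cell barcode, which are not normalized. Cell Ranger 2.0.2 and the build mm10 appear among the submitters' processing notes. The sources used here do not say how the authors treated empty droplets or free RNA. A table pooling the libraries was not used. Cells with at least 200 genes and at most 10% mitochondrial UMIs were kept, 728, 2793 and 2059 from steady state, day 1 and day 5, with 1658022, 7975791 and 5524496 UMIs before that filter. UMIs were summed per group and scaled to CPM (Python 3.11.15, numpy 2.4.6, scipy 1.17.1). CPM have exact Poisson intervals, ratios exact conditional binomial intervals and shares exact Clopper-Pearson intervals. The scripts were checked on simulated sums with Poisson error only. That simulation held no spread between cells, so it does not bear on the spread seen here.

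The named genes are the 12 with the largest ratio each way at 100 CPM or more in either group (rule genes, predicted genes and those of mitochondria, ribosomes, hemoglobin and immunoglobulin left out), and up to 4 genes of each of 31 lists plus its highest. Other list genes named were chosen after their values were seen. The members and lists were chosen with earlier results of these data known. Of 149 named genes, counted with the rule genes, 114 had a RefSeq promoter window. The names Cebpd, Jaml, Pclaf and Trbc2 were not matched in the tables. Positions and 50-base words come from GENCODE M21 (GRCm38). Doublets were kept, and scrublet (scanpy 1.11.5) calls, 19 of 728 cells (2.61%), were left out as an alternative only. A few genes that met the naming rule are not reported here.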

Additional observations from a re-analysis of the deposited data

Results flagged for a closer look

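For 16 genes named by the rule, the ratio of cells that met the lectin rule over cells with a sum of 0 or 1 was past 2-fold in opposite directions at steady state and at an injury time point, with 95% counting intervals apart. The named genes numbered 149, which counts the genes of the lectin rule, whose ratios were fixed by the choice of cells. Others were named for large ratios at steady state. The share over all genes is not given, so whether 16 is more than the background cannot be judged. The difference between time points was not tested, since each is 1 library.

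At day 1 the ratio was above 1 for genes that were below 1 at steady state. Cd74 was at 0.336 at steady state and 2.55 at day 1, and H2-Eb1 at 0.356 and 2.65. Of the NF-kappaB genes, Nfkbia was at 0.335 and 2.13, Tnfaip3 at 0.368 and 3.37, and Nfkbiz at 0.448 and 3.62. The chemokine Cxcl1 was at 0.175 and 2.40, the lectin Clec4b1 at 0.429 and 4.78, and the sialyltransferase St3gal6 at 0.240 and 11.6 (3.03 to 32.1 at day 1). The prostaglandin genes Ptgs1 and Hpgds were at 0.260 and 0.302 at steady state and at 5.31 and 3.94 at day 1. Their day 1 intervals were 1.69 to 12.8 and 1.26 to 9.40. Those of Cxcl1 and Clec4b1 were 1.14 to 4.45 and 1.89 to 10.1. The cells that met the rule at day 1 held 64133 UMIs in all, so 1 UMI was 15.6 CPM.

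Ctsd ran the other way, at 3.12 at steady state and 0.387 at day 1, as did S100a4 at 2.84 and 0.281 and S100a6 at 2.30 and 0.406. At day 5, Gpr34 was at 3.14 after 0.426 at steady state, Hpgd at 3.10 after 0.453, and Irf8 at 2.08 after 0.376. In the cells that met the rule, Gpr34 was at 67.7 CPM at steady state and 66.0 CPM at day 5. In the cells with a sum of 0 or 1, it was at 159 and 21.0 CPM in that order. The ratios of this section alone do not say which group differed between libraries. The injured groups rest on 31 and 63 cells.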

How the results depend on the processing

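No paired analysis was possible because each time point is 1 library and the labels number no replicates. Under other rule limits, depth limits, scalings, thinning and cell filters the number of lectin-high cells ranged from 149 to 215, the higher genes from 201 to 373 and the lower genes from 156 to 231. The filter on low values moved the counts by construction: a mean of 20 CPM gave 581 higher and 471 lower of 4347 genes, 100 CPM gave 138 and 91 of 1263, and no filter gave 3083 and 1475. Of the named gene ratios, 1746 values kept their place, 125 moved and 1 reversed, Dnajc12 at a log2 ratio of -1.23 with cells carrying markers of other types or of cycling left out; the cause was not tested. Of the list medians, 390 values kept their place and 13 moved, and those of the lipid, glycolysis, lysosomal, apoptotic uptake, monocyte and C-type lectin lists crossed 0 under some setting. Some list medians that reached 2-fold in the main setting fell short of it in others. Nearest to 0, they were at -0.89 for NF-kappaB genes, -0.78 for cell cycle, -0.75 for inflammatory genes and -0.98 for endoneurial markers. Leaving out the top cell of each gene was chosen after seeing the data, and gave 202 higher and 180 lower genes with the limit of 50 CPM applied again to the levels that were left. A gene with 0 UMIs in lectin-high cells could be at up to 6.77 CPM (3 counts over the group), and in lectin-low cells at up to 2.80 CPM. The low end of the Gstp1 range below sets 3 counts in place of 0 UMIs in lectin-low cells. Over all settings, log2 ratios that moved by over 1.5-fold without losing their call ran from 3.39 to 4.85 for Ccl8, 3.39 to 6.73 for Cela1, 5.08 to 6.89 for Gstp1, 3.17 to 4.91 for Ms4a8a, 4.04 to 4.98 for Rasgrp2, 1.97 to 2.98 for Mgst1, 1.35 to 2.09 for S100a4 and 1.10 to 1.84 for Cd209a. Downward they ran from -3.19 to -1.79 for Il1b, -4.09 to -2.46 for Lilra5, -3.13 to -1.83 for Lat2, -3.35 to -2.20 for Phlda1, -2.83 to -1.74 for BC035044, -5.15 to -3.17 for Itgb5, -2.74 to -2.05 for Ccl12, -3.38 to -1.54 for Ccr2, -3.15 to -1.63 for Clec12a, -3.50 to -2.20 for Bmp2, -2.01 to -1.15 for Irf8 and -2.60 to -1.10 for Hpgds.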

Other observations

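The cells with a sum of 2 or 3 were 54 of 728 (7.42%, 5.62 to 9.57) and belong to neither group. Among single-cell peaks, 61.3% of the 31 cells that met the rule at day 1 (42.2 to 78.2) had 15 or more UMIs of some gene that averages under 0.5 per kept cell, against 40.9% of the day 1 cells with a sum of 0 or 1 (39.1 to 42.8). At day 5 the shares were 41.3% of the cells that met the rule and 39.8% of the cells with a sum of 0 or 1. The average runs over all kept cells, and only 1.11% of those met the rule at day 1. Retnla had 473 UMIs in those and 165 UMIs in the day 1 cells with a sum of 0 or 1. The day 1 peaks in cells that met the rule were 27 pairs of cell and gene on 17 genes. In lectin-high cells they were 114 pairs on 113 genes. The day 1 share thus does not tell single-cell peaks apart from genes shared by the cells that met the rule. Retnla in the cells with a sum of 0 or 1 was at 1130, 21.0 and 1311 CPM at steady state, day 1 and day 5.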
